A study of Homo sapiens with 18 samples.

Results

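The 9 genes followed here, which SW48 cells kept nearly silent under control siRNA, and that carried a clear level once DNMT1 was depleted or decitabine was given with CHD4 left intact, are ACRC, SAP25, SPTBN5, APBA2, EEF1A2, FSTL1, GJA1, HOMER2 and AQP3. They are 9 of the 23571 named genes in the expression table and 9 of the 12809 genes tested. They were chosen on their values in the control siRNA, siDNMT1 and decitabine libraries with CHD4 intact, so those values are given as a description without a test. Tests were kept for the libraries that the rule of choice did not use, those with CHD4 depleted. DNA methylation itself was not measured in the files used here.

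SW48 is an established human colon adenocarcinoma cell line. Total RNA was sequenced, after removal of ribosomal RNA, in 18 libraries that form 6 groups of 3. Cells of the control group received control siRNA, and cells of the siCHD4 group received siRNA against CHD4, in both cases on days 1, 3 and 6 with RNA harvest on day 8. In the siDNMT1 groups, siRNA against DNMT1 on days 1, 3 and 5 came before control siRNA or siCHD4 on days 7 and 8, and RNA was harvested on day 11. In the decitabine groups, the drug at 50 nM on days 1, 2 and 3 overlapped with control siRNA or siCHD4 on days 1 and 2, and RNA was harvested on day 5. No vehicle or control siRNA arm on the siDNMT1 or decitabine schedule was used here, so wherever a treated group is set against an untreated one, or siDNMT1 against decitabine, the treatment and its schedule cannot be told apart. The labels do not state whether replicate libraries are from separate cultures, and the p-values describe the spread among libraries, possibly a technical one.

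In mammalian DNA, cytosines of CG dinucleotides are methylated, and DNMT1 copies the methylation pattern onto the new strand after replication. When DNMT1 is depleted, or trapped on DNA by the incorporated cytidine analogue decitabine, the pattern is diluted as cells divide, and genes whose CG-rich promoters had been methylated can become transcribed. CHD4 is the ATPase of the NuRD complex, which joins nucleosome remodelling to histone deacetylation and is recruited to silent promoters. In colon cancers with promoter hypermethylation, many genes are silenced in this way.

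The labels were checked on the targeted genes. CHD4 was 62.8 ± 4.78 FPKM (mean ± SD, n = 3; fragments scaled to transcript length and library size) with control siRNA and 31.3 ± 7.87 with siCHD4, 68.2 ± 5.19 against 28.4 ± 1.12 with siDNMT1, and 76.2 ± 8.17 against 54.9 ± 2.06 with decitabine. The reduction in the decitabine groups was thus smaller than in the other 2 backgrounds. DNMT1 was 12.3 ± 1.15 and 12.1 ± 0.968 FPKM in the siDNMT1 groups and between 42.5 and 51.7 in the means of the other 4 groups. In depth a single library stood apart, replicate 0 of the control siRNA plus decitabine group. The most common ratio of low values to those of control siRNA replicate 0 was taken as the worth of 1 fragment. It was 2.04 log2 units in that library, against -0.72 to 0.26 in the other 17, so that library was taken to be the shallowest. Its summed FPKM was 1727230, against 765078 to 1467330 in the others. In gene levels siCHD4 replicate 2 also differed from its group. It had 23.2 FPKM of CHD4 against 39.0 and 31.8, and 5.64 of the epithelial marker VIL1 against 1.77 and 2.43. Without it 2892 genes were called higher and 3274 lower with siCHD4 plus siDNMT1 than with siCHD4, and 2129 and 2483 with it. All 9 genes were called higher either way. Of 8 colon epithelial markers, 6 or 7 had a mean of at least 1 FPKM in each group, and CDX1 was listed at 0 in 5 of the 6 groups. As these are bulk samples, fewer cells of a type and less RNA per cell cannot be told apart.

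The promoters of the 9 genes do not share one sequence type. RefSeq promoter windows of 300 bases (GRCh38.p14, 250 bases before to 50 bases after the annotated start) were at hand for 8 of the 9 genes, and EEF1A2 had no entry. The CG count ranged from 3 in GJA1 to 44 in HOMER2, and the median over 35116 windows was 14. HOMER2 held 44, AQP3 31, FSTL1 30, SAP25 29 and ACRC 21. APBA2 has 5 windows, the first with 38 CG and the others with 8, 4, 6 and 8, and which of these starts SW48 cells use was not examined. Counts as high as these were found in 4.19% of all windows for HOMER2 and in 39.5% for ACRC. SPTBN5, with 9, and GJA1, with 3, were below the median, and 58.4% and 81.8% of windows held at least as many. The observed over expected CG ratio was between 0.757 and 0.886 in the windows of HOMER2, AQP3, FSTL1, SAP25 and ACRC, from 0.148 to 0.877 in those of APBA2, 0.279 in SPTBN5 and 0.217 in GJA1, against a median of 0.579 over all windows.

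Stretches of 5 genes are printed because they span that range, each the 250 bases before the start, written 5′ to 3′ on the strand of the gene with every CG in capitals. ACRC (chrX:71578187-71578436, plus strand, 18 CG) and FSTL1 (chr3:120450993-120451242, minus strand, 24 CG) carry CG throughout, and HOMER2 (chr15:82952721-82952970, minus strand, 37 CG) is the densest. SPTBN5 (chr15:41894054-41894303, minus strand, 8 CG) and GJA1 (chr6:121435396-121435645, plus strand, 1 CG) are the sparse ones.
ACRC: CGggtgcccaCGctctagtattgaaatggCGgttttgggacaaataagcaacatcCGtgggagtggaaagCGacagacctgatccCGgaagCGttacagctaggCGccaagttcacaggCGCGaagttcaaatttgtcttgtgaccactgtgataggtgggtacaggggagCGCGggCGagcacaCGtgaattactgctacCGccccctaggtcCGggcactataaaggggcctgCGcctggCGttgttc
FSTL1: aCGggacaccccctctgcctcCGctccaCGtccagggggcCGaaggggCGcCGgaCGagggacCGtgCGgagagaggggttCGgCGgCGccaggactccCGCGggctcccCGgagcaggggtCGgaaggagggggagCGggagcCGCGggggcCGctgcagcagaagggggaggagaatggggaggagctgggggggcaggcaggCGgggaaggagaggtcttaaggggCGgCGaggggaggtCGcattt
HOMER2: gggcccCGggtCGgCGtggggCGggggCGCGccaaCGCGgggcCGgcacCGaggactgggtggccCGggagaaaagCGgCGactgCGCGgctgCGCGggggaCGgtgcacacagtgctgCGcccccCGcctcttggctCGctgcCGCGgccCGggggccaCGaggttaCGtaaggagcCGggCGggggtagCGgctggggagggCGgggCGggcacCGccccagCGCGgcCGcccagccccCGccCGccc
SPTBN5: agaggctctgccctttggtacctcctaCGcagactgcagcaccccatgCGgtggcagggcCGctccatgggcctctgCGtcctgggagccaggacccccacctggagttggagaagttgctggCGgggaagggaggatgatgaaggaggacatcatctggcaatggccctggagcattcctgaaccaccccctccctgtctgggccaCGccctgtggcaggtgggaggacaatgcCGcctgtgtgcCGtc
GJA1: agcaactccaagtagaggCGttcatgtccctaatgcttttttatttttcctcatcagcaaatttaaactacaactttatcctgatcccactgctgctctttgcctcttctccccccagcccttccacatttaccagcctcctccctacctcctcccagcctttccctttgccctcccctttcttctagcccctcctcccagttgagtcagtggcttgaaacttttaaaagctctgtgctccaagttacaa
Among the first windows of the 8 genes, the GC box letters GGGCGG, searched on both strands, were present in 6 (45.0% of all windows), the letters TATAAA in ACRC and AQP3 (11.5% of all windows), and the palindrome TGACGTCA in none (1.85% of all windows). GGGCGG and TGACGTCA each hold a CG, and a match describes letters only.

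**Figure D1:**
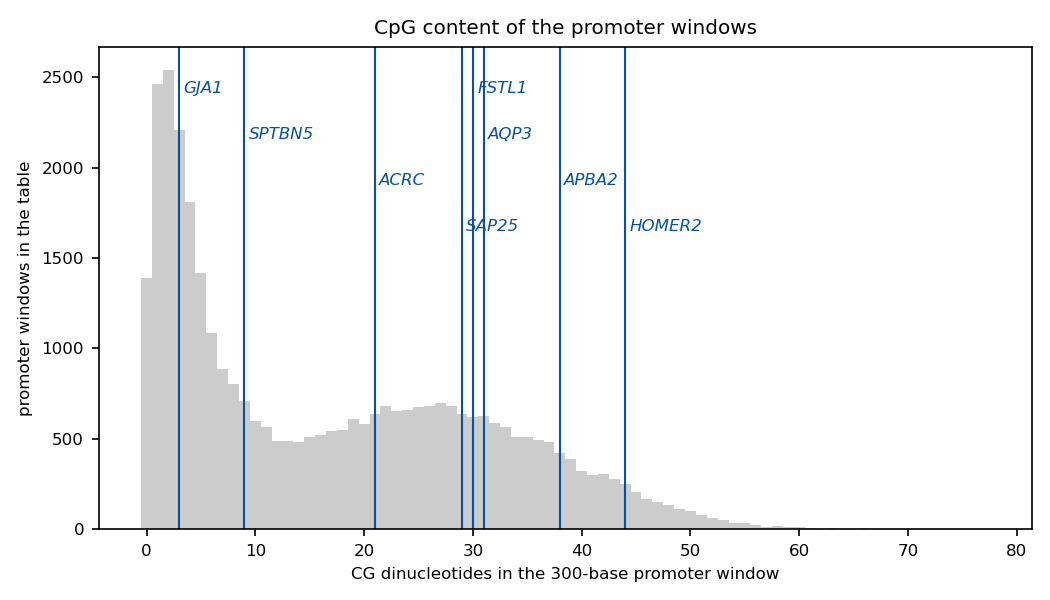
Number of promoter windows (vertical axis) by the number of CG dinucleotides in the 300-base window (horizontal axis), grey bars for all 35116 RefSeq windows and blue lines for the first window of 8 of the 9 genes. GJA1 and SPTBN5 lie at 3 and 9 CG, below the median of 14, and the other 6 first windows at 21 to 44. The other 4 windows of APBA2, at 4 to 8 CG, are not drawn.

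The germ-cell and chromatin genes reached the highest levels. ACRC, also called GCNA, encodes a germ cell nuclear protein and lies on the X chromosome (GRCh37, chrX:70798287-70833433, plus strand). Its level was 0.436, 0.117 and 0.471 FPKM in the 3 control siRNA libraries and 0.232, 0.487 and 0.665 in the siCHD4 libraries. It stood at 32.5, 31.2 and 30.4 with siDNMT1 and 36.8, 32.1 and 31.1 with decitabine while CHD4 was intact, and at 34.0, 41.1 and 35.3 with siCHD4 plus siDNMT1 and 27.5, 24.7 and 30.3 with siCHD4 plus decitabine. All 12 treated libraries were above all 6 untreated ones, and the 4 treated means lay within 27.5 to 36.8 FPKM.

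SAP25 encodes a subunit of the SIN3 histone deacetylase complex and is a short gene on chromosome 7 (GRCh37, chr7:100169851-100171523, minus strand). A long non-coding RNA gene overlaps SAP25 on the same strand and is not listed under its GENCODE name. Whether its reads enter the SAP25 level was not examined. Control siRNA libraries gave 0.345, 0.184 and 0 FPKM and siCHD4 libraries 0.110, 0.462 and 0.526. With CHD4 intact its level was 46.3, 45.9 and 48.0 with siDNMT1 and 56.8, 30.9 and 32.4 with decitabine. The decitabine value of 56.8 came from the library taken to be the shallowest, and the other 2 had a mean of 31.7. With CHD4 depleted the libraries gave 21.9, 25.9 and 20.8 with siDNMT1 and 28.2, 22.2 and 20.1 with decitabine, all below every treated library with CHD4 intact.

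The genes of the neuronal and membrane scaffolds reached lower levels. SPTBN5, a beta spectrin of the membrane skeleton (GRCh37, chr15:42140344-42186251, minus strand), was the one whose 6 groups all separated. Its libraries gave 0.140, 0.170 and 0.131 FPKM with control siRNA and 0.545, 1.06 and 0.819 with siCHD4. They gave 1.74, 1.58 and 1.45 with decitabine and 7.65, 6.50 and 7.66 with siDNMT1, and, with CHD4 depleted, 4.79, 5.26 and 4.84 and 14.2, 16.2 and 14.7. Each group of this ladder was free of overlap with the next. PLA2G4B and JMJD7-PLA2G4B overlap SPTBN5 on the opposite strand, and their highest levels in any library were 4.54 and 1.90 FPKM. The library kit keeps strand, but whether the counting used it is not given in the sources used here.

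APBA2 encodes a neuronal adaptor that binds the amyloid precursor protein (GRCh37, chr15:29129629-29410518, plus strand). It stood at 0.667, 0.272 and 0.412 FPKM with control siRNA and 0.305, 0.448 and 0.323 with siCHD4, which overlapped. With siDNMT1 and intact CHD4 its libraries gave 9.61, 9.84 and 9.39, above all others. The other treated groups, 6.29, 5.38 and 5.56 with decitabine, 4.92, 5.58 and 5.10 with siCHD4 plus siDNMT1 and 4.94, 5.19 and 6.22 with siCHD4 plus decitabine, overlapped one another.

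HOMER2, a scaffold of the postsynaptic density (GRCh37, chr15:83505698-83654905, minus strand), had its high levels with decitabine. Libraries with decitabine gave 6.60, 5.91 and 7.31 FPKM with control siRNA and 4.11, 3.88 and 4.53 with siCHD4. Libraries with siDNMT1 gave 2.35, 2.25 and 1.85 and 1.64, 1.40 and 1.33. The levels without either treatment were 0.246, 0.594 and 0.430 with control siRNA and 0.661, 0.455 and 0.878 with siCHD4, and these overlapped.

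EEF1A2 encodes the translation elongation factor 1 alpha form of neurons and muscle (GRCh37, chr20:62119366-62130592, minus strand). It is listed at 0 in all 3 control siRNA and all 3 siCHD4 libraries, so no fold is given. It had 7.15, 7.05 and 7.50 FPKM with siDNMT1 and 4.20, 2.89 and 3.73 with decitabine while CHD4 was intact. With CHD4 depleted it had 16.2, 15.1 and 13.5 with siDNMT1 and 6.45, 4.71 and 4.64 with decitabine. These 4 groups did not overlap.

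Of the secreted and membrane genes, FSTL1 encodes a secreted follistatin-like glycoprotein (GRCh37, chr3:120111140-120169863, minus strand). Untreated libraries gave 0.0891, 0.0636 and 0.207 FPKM with control siRNA and 0.285, 0.259 and 0.514 with siCHD4, without overlap. Levels with CHD4 intact were 6.48, 4.86 and 5.60 with siDNMT1 and 7.10, 6.06 and 5.80 with decitabine, which overlapped. With CHD4 depleted they were 12.2, 12.4 and 11.4 and 9.21, 8.41 and 9.41, so all 6 of those libraries were above all 6 treated libraries with CHD4 intact.

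FSTL1 is abundant in fibroblasts, so the 10 fibroblast markers were summed: 0.121 to 0.490 FPKM in control siRNA libraries, 0.414 to 3.80 with siCHD4, 3.99 to 4.11 with siDNMT1, 0.624 to 3.90 with decitabine, 6.79 to 7.70 with siCHD4 plus decitabine and 14.2 to 16.0 with siCHD4 plus siDNMT1. LUM, a matrix proteoglycan, had the highest mean of the 10 with siCHD4 plus siDNMT1, 10.0 FPKM. COL3A1 and POSTN were listed at 0 in all 6 groups, and means of at least 1 FPKM were reached by at most 4 of the 10 markers in any group. With siCHD4 plus siDNMT1 these 4 were LUM, COL1A1, DCN and THY1. COL1A1, DCN and THY1 stood at 2.31, 1.29 and 1.11 FPKM there, against 0.0641, 0.0387 and 0 with control siRNA. Summed endothelial markers were at most 1.03 FPKM in any library. The summed epithelial markers were 2014 to 2126 FPKM with control siRNA, 1196 to 1364 with siCHD4, 1798 to 1878 with siDNMT1, 1883 to 2457 with decitabine, 1052 to 1095 with siCHD4 plus siDNMT1 and 1439 to 1498 with siCHD4 plus decitabine. KRT8 and KRT18 dominate this sum, with means of 805 and 884 FPKM with control siRNA and 340 and 274 with siCHD4 plus siDNMT1. Between the same groups EPCAM stood at 258 and 227 with overlap. CDX2, CDH1, KRT19 and VIL1 were higher with siCHD4 plus siDNMT1, at 66.4, 108, 46.8 and 7.04 FPKM against 37.9, 74.1, 16.2 and 0.696. The 7 blood cell markers summed to 2.25 to 9.09 FPKM, and HBB was listed at 0 in all 6 groups. The 8 neural and glial markers, listed because APBA2, HOMER2 and EEF1A2 are known from neurons, summed to 90.8 to 114 FPKM with control siRNA, 88.1 to 125 with siCHD4, 101 to 118 with siDNMT1, 108 to 127 with decitabine, 163 to 187 with siCHD4 plus siDNMT1 and 121 to 139 with siCHD4 plus decitabine. Of these 8, SYT1, MBP and TUBB3 had means of at least 1 FPKM in each group, and SNAP25 and OLIG2 were listed at 0 in the 4 groups other than siCHD4 plus siDNMT1 and siCHD4 plus decitabine. The part of these shifts in the levels of the 9 genes was not tested.

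GJA1 encodes connexin 43, a gap junction channel protein (GRCh37, chr6:121756741-121770873, plus strand). Its level was 0.0369, 0.0395 and 0.184 FPKM with control siRNA and 0.142, 0.124 and 0.150 with siCHD4, which overlapped. The siDNMT1 libraries with intact CHD4 gave 6.37, 7.09 and 6.63, above every other library. The remaining treated groups overlapped, with 3.04, 2.94 and 2.49 for decitabine, 2.60, 3.68 and 3.07 for siCHD4 plus siDNMT1 and 2.10, 3.06 and 3.52 for siCHD4 plus decitabine.

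AQP3, a channel for water and glycerol in epithelia (GRCh37, chr9:33441154-33447594, minus strand), was the least silent of the 9 at the start. Its untreated libraries gave 1.10, 0.625 and 0.453 FPKM with control siRNA and 0.995, 1.26 and 2.38 with siCHD4. With decitabine it reached 17.6, 20.4 and 23.3 with CHD4 intact and 11.9, 11.7 and 11.8 with CHD4 depleted. With siDNMT1 it reached 8.10, 7.96 and 11.3 and 7.61, 8.02 and 7.88, and these 2 groups overlapped.

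As a ratio of group means, the described rise over control siRNA ran from 5.08-fold for HOMER2 to 265-fold for SAP25 with siDNMT1, and from 10.8-fold for SPTBN5 to 227-fold for SAP25 with decitabine, EEF1A2 aside. A ratio over a control this low moves with small errors of that control. Without replicate 0 of the control siRNA plus decitabine group, the means of the other 2 libraries were 31.6 FPKM for ACRC, 31.7 for SAP25, 1.51 for SPTBN5, 5.47 for APBA2, 3.31 for EEF1A2, 5.93 for FSTL1, 2.71 for GJA1, 6.61 for HOMER2 and 21.8 for AQP3.

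**Figure D2:**
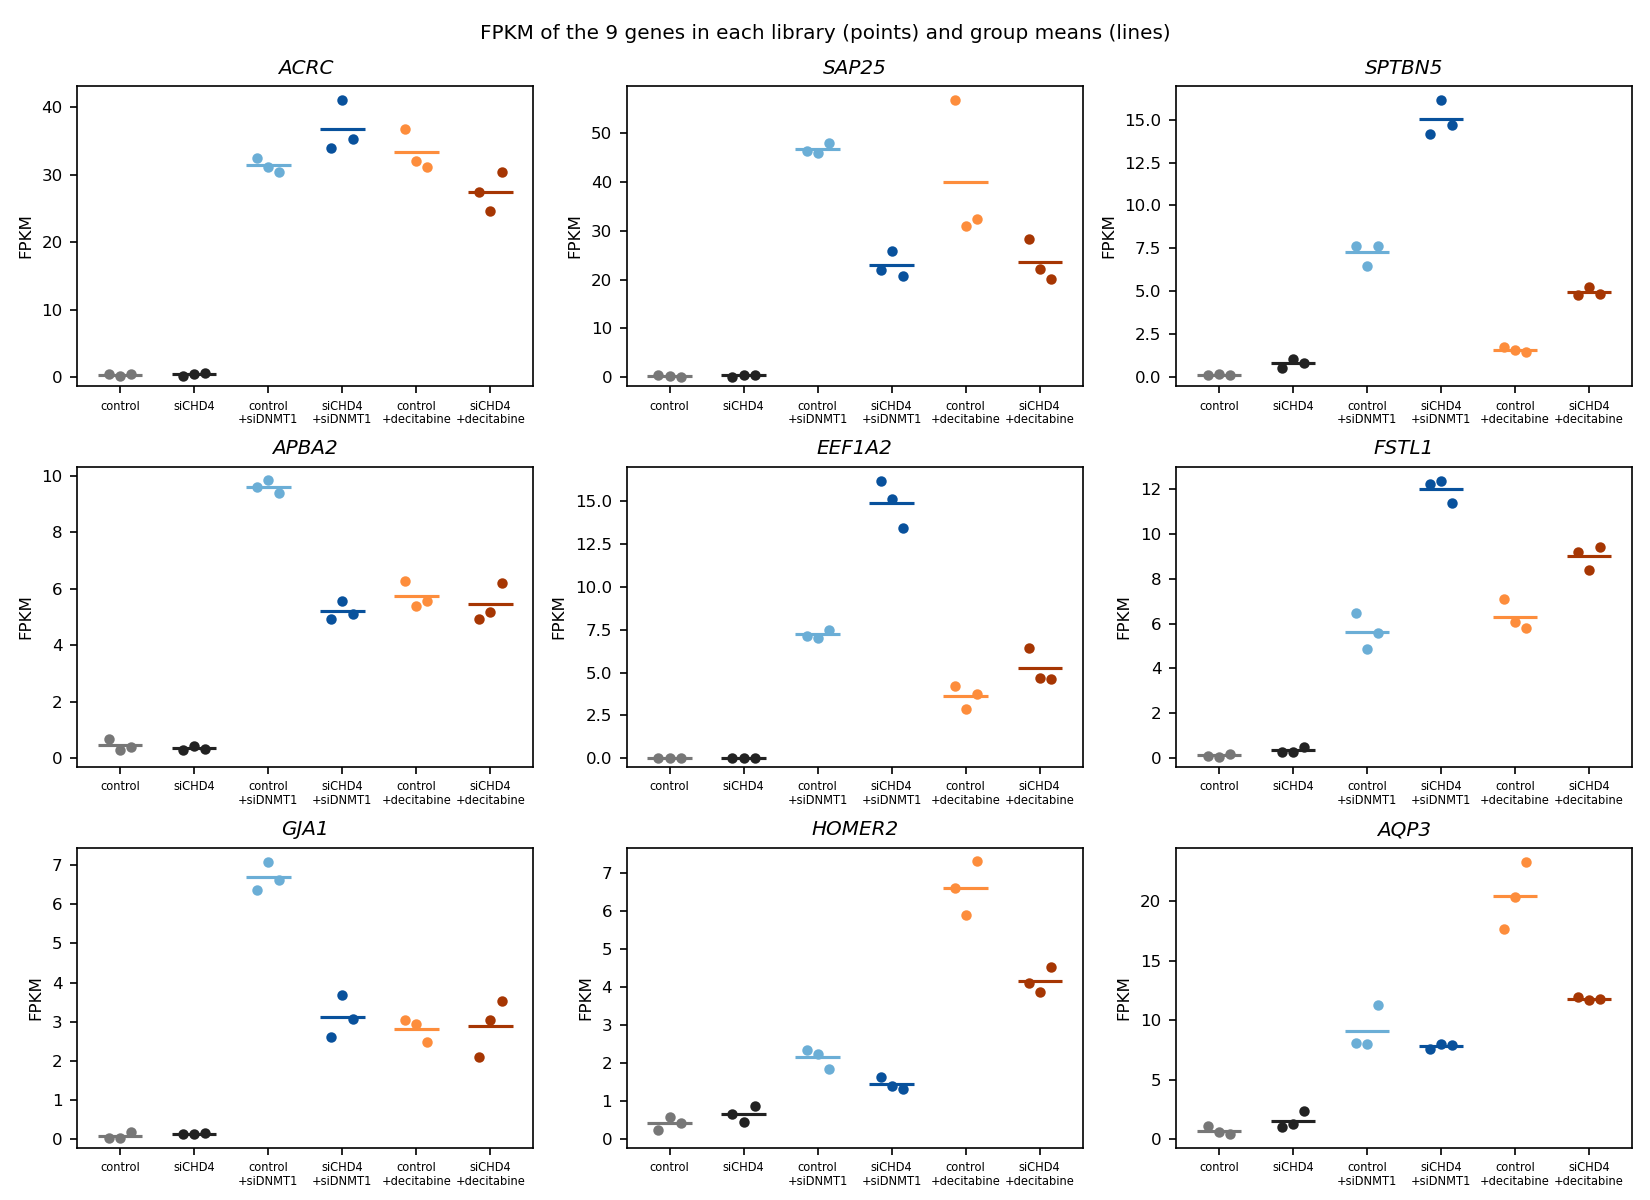
Level of each of the 9 genes in FPKM (vertical axis, linear, own scale per panel) in every library (points) with the mean of each group of 3 (lines). The control siRNA and siCHD4 libraries sit near 0, at most 2.38 FPKM in AQP3, and SPTBN5, EEF1A2 and FSTL1 have their highest libraries with siCHD4 plus siDNMT1.

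The first tested question was whether the genes also differ with siDNMT1 or decitabine when CHD4 is depleted, in libraries whose values the rule of choice did not use. Earlier results of these data were known when the genes and tests were chosen. All 9 were called higher with siCHD4 plus siDNMT1 than with siCHD4, a comparison in which 16.6% of tested genes were called higher. All 9 were also called higher with siCHD4 plus decitabine than with siCHD4, where 7.66% of tested genes were. All 9 had passed the filter on low values through libraries with CHD4 intact. Both comparisons share the 3 siCHD4 libraries. Their mean CHD4 was 31.3 FPKM, against 28.4 with siDNMT1 added and 54.9 with decitabine added. The decitabine comparison thus also differs in the extent of CHD4 loss. Differences are on the log2(FPKM + 1) scale, which understates the change of low genes.

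With siDNMT1 the difference (± SE) was largest for ACRC, 4.70 ± 0.129, the germ cell gene, followed by SAP25 at 4.14 ± 0.200, with limma adjusted p of 2.30e-12 and 5.24e-10. FSTL1 differed by 3.27 ± 0.108 and SPTBN5 by 3.16 ± 0.103 (limma adjusted p = 9.02e-12 and 8.96e-12). APBA2, GJA1 and AQP3 differed by 2.19 ± 0.107, 1.85 ± 0.131 and 1.83 ± 0.181 (limma adjusted p = 5.59e-10, 3.80e-08 and 1.73e-06). For the scaffold gene HOMER2 the difference was smallest, 0.57 ± 0.120 (limma adjusted p = 0.00221), a mean of 1.46 against 0.665 FPKM. EEF1A2 was called with limma (adjusted p = 4.87e-12) at a mean of 14.9 FPKM against 0. Every siCHD4 plus siDNMT1 library was above every siCHD4 library for all 9 genes, as was so for 20.4% of tested genes. The median difference of the 9 was 3.16, and that of all tested genes was -0.00.

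With decitabine the range was narrower. ACRC and SAP25 again led, at 4.29 ± 0.129 and 4.17 ± 0.200 (limma adjusted p = 5.99e-12 and 9.40e-10). FSTL1 differed by 2.89 ± 0.108, AQP3 by 2.37 ± 0.181 and APBA2 by 2.24 ± 0.107 (limma adjusted p = 8.46e-11, 2.20e-07 and 9.12e-10). GJA1, SPTBN5 and HOMER2 had the smallest differences, 1.76 ± 0.131, 1.73 ± 0.103 and 1.64 ± 0.120 (limma adjusted p = 1.54e-07, 1.35e-08 and 1.32e-07). The call for EEF1A2 (limma adjusted p = 5.00e-10) set a mean of 5.27 FPKM against 0. The median difference of the 9 genes was 2.37 beside 0.00 for all tested genes, and again no library of one group overlapped the other, as was so for 15.1% of tested genes in the higher direction. Of the 18 calls, 17 held under each of 15 alternative settings. The exception was HOMER2 with siDNMT1, whose difference was 0.18 after quantile normalization (limma adjusted p = 0.223).

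The second tested question was which treatment gave the higher level once siCHD4 was given. Mean CHD4 was 28.4 FPKM with siCHD4 plus siDNMT1 and 54.9 with siCHD4 plus decitabine. The treatment and the extent of CHD4 loss therefore cannot be told apart in this comparison. With siCHD4 plus siDNMT1 against siCHD4 plus decitabine, 4 of the 9 genes were called higher and 1 lower, where 9.03% of tested genes were called higher and 10.1% lower. SPTBN5 and EEF1A2 were higher with siDNMT1, by 1.42 (95% interval 1.20 to 1.65, limma adjusted p = 8.90e-07) and 1.35 (1.10 to 1.61, 4.05e-06). HOMER2 was lower, at -1.08 (-1.34 to -0.81, limma adjusted p = 3.46e-05). These 3 calls held under all 15 alternatives.

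ACRC and FSTL1 were called with smaller differences, 0.41 (0.13 to 0.69, limma adjusted p = 0.0388) and 0.38 (0.14 to 0.61, limma adjusted p = 0.0248), and each held in 8 of 15 alternatives. Without any 1 of the 3 siCHD4 plus siDNMT1 libraries, or without siCHD4 plus decitabine replicate 0 or 1, the limma adjusted p ran from 0.0636 to 0.129 for ACRC, and for FSTL1 from 0.0509 to 0.0840. FSTL1 also lost its call without siCHD4 plus decitabine replicate 2 (limma adjusted p = 0.0525). AQP3 missed the threshold at -0.54 (-0.93 to -0.14, limma adjusted p = 0.0509), although all its siDNMT1 libraries lay below all its decitabine libraries, and it was called in 4 of 15 alternatives. Among these was the fit without control siRNA plus decitabine replicate 0 (limma adjusted p = 0.0394). For SAP25, APBA2 and GJA1 the libraries overlapped, and the intervals of the difference were -0.47 to 0.41, -0.29 to 0.18 and -0.19 to 0.38. The median of the 9 was 0.09, beside -0.01 for all tested genes.

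With CHD4 intact, where the values had served the choice, the same 2 treatments are set side by side as a description. SPTBN5, APBA2, EEF1A2 and GJA1 were higher with siDNMT1, by 1.67, 0.66, 0.85 and 1.01 on the log2 scale, and HOMER2 and AQP3 were lower, at -1.27 and -1.09. The libraries of these 6 genes did not overlap, as was so for 16.3% of tested genes in the higher and 15.5% in the lower direction. Those of ACRC, SAP25 and FSTL1 overlapped. Without control siRNA plus decitabine replicate 0, SAP25 was separated as well, higher with siDNMT1, which made 5 higher, 2 lower and 2 overlapping. SPTBN5, EEF1A2, HOMER2 and AQP3 thus kept their direction between the treatments, without overlap, in both CHD4 states, although AQP3 missed the threshold with CHD4 depleted. The differences seen with CHD4 intact for APBA2, 0.66, and GJA1, 1.01, stood beside -0.05 and 0.09 with CHD4 depleted. Whether these pairs of differences differ was not tested, and with siCHD4 the 2 treatments also differed in the CHD4 level that remained.

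**Figure D3:**
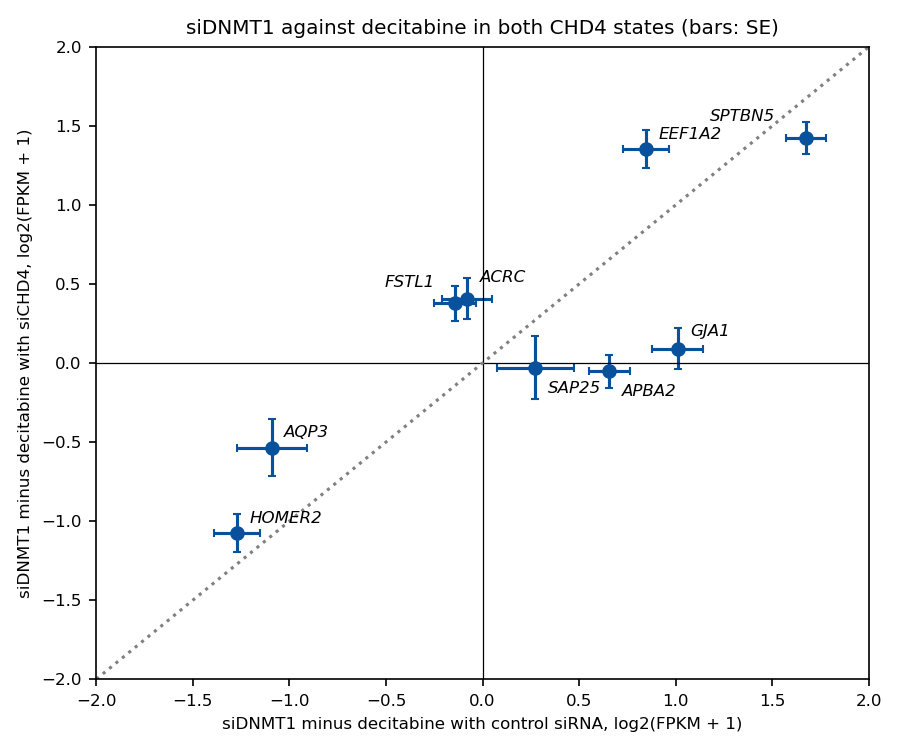
Difference between siDNMT1 and decitabine for each of the 9 genes on the log2(FPKM + 1) scale, with control siRNA on the horizontal axis and siCHD4 on the vertical axis; bars are the SE of the fitted difference and the dotted line marks equal differences. SPTBN5 and EEF1A2 are at the upper right, HOMER2 and AQP3 at the lower left, and APBA2 and GJA1 are near 0 on the vertical axis only.

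With CHD4 depleted by itself the 9 genes stayed at or below 2.38 FPKM in every library, and with CHD4 depleted on top of siDNMT1 or decitabine some stood higher and others lower. These contrasts use groups that served the choice and are described without a test. With siCHD4 alone, only SPTBN5 (5.48-fold the control mean, 0.806 against 0.147 FPKM) and FSTL1 (2.94-fold, 0.352 against 0.120 FPKM) were separated from control siRNA, both higher, and the other 7 overlapped. Among all tested genes 33.5% were separated in either direction.

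With siDNMT1, 4 genes were separated upwards and 4 downwards by siCHD4, in a comparison in which 33.7% and 36.4% of tested genes were. SPTBN5, EEF1A2 and FSTL1 stood at 2.06, 2.07 and 2.12 times their level with control siRNA, and ACRC at 1.17 times. GJA1, SAP25, APBA2 and HOMER2 stood at 0.466, 0.490, 0.541 and 0.676 times. AQP3, at 0.860 times, overlapped.

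With decitabine, where less CHD4 was removed, 3 genes were separated upwards and 4 downwards by siCHD4, beside 13.8% and 13.2% of tested genes. Upwards were SPTBN5 at 3.12 times, EEF1A2 at 1.46 times and FSTL1 at 1.43 times. Downwards were AQP3 at 0.577, SAP25 at 0.588, HOMER2 at 0.632 and ACRC at 0.825 times, and APBA2 and GJA1 overlapped. The same counts were found without control siRNA plus decitabine replicate 0. SPTBN5, EEF1A2 and FSTL1 were higher, and SAP25 and HOMER2 lower, with siCHD4 in both treated backgrounds. ACRC was separated in opposite directions in the 2 backgrounds, as were 0.64% of tested genes.

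**Figure D4:**
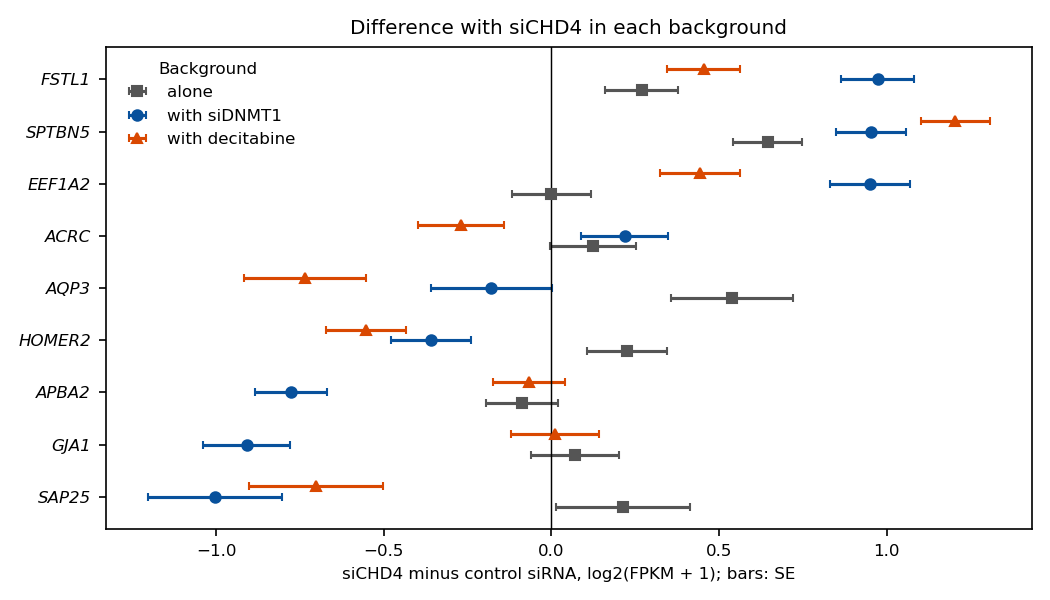
Difference between siCHD4 and control siRNA for each of the 9 genes on the log2(FPKM + 1) scale (horizontal axis), given alone (grey squares), with siDNMT1 (blue circles) and with decitabine (orange triangles); bars are the SE of the fitted difference. FSTL1, SPTBN5 and EEF1A2 are to the right of 0 in both treated backgrounds, and SAP25 and HOMER2 to the left.

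The relatives of the 9 genes were examined in lists of 90 genes of the same families and complexes, of which 89 were in the table and 51 were tested. With siDNMT1 against control siRNA, 7 of the 51 were called higher and 1 lower, where 6.94% and 4.4% of tested genes were. With decitabine against control siRNA 12 were called higher and 3 lower (9.6% and 8.63% of tested genes). With CHD4 depleted, 14 were called higher and 9 lower with siDNMT1, beside 16.6% and 19.4% of tested genes. With decitabine 8 were called higher and 4 lower, beside 7.66% and 6.28%.

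The relatives of APBA2, adaptors and paralogs of the amyloid precursor protein, gave 3 calls among 9 tested genes with siDNMT1 and the same 3 with decitabine, both against control siRNA. APBB1, which binds the tail of the amyloid precursor protein, went from 0.691 ± 0.341 FPKM to 3.21 ± 0.452 with siDNMT1 and 3.08 ± 0.256 with decitabine (limma adjusted p = 0.000174 and 0.000231). APLP1, a paralog of that precursor, went from 1.00 ± 0.122 to 3.06 ± 0.549 and 4.57 ± 0.226 FPKM (limma adjusted p = 0.000107 and 2.28e-06). APBB2 was the third. With CHD4 depleted the same 3 were called higher with either treatment, APLP2 was added with siDNMT1, and APBB3 was lower with decitabine (-0.50, limma adjusted p = 0.00848). Leaving out 1 library ended the APBB2 call in 4 of 6 fits with siDNMT1 and 4 of 6 with decitabine against control siRNA (control siRNA replicate 0 or 1, or the treated group's replicate 1 or 2, limma adjusted p = 0.0601 to 0.0933), and the APLP2 call in 4 (siCHD4 replicate 0 or 1, or siCHD4 plus siDNMT1 replicate 1 or 2, limma adjusted p = 0.0636 to 0.122). The paralogs APBA1 and APBA3 were not called in these comparisons. The median log2 difference of the 9 was -0.05 with siDNMT1 and 0.08 with decitabine against control siRNA.

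Among relatives of GJA1, 8 of the 22 connexins and pannexins in the table were tested. PANX2 rose from 2.23 ± 0.501 FPKM to 4.01 ± 0.499 with siDNMT1 and 5.16 ± 0.599 with decitabine (limma adjusted p = 0.0247 and 0.00156), and was also called higher in both comparisons with CHD4 depleted. GJB2 was called higher with siDNMT1 (0.41, limma adjusted p = 0.0307). GJB5 was called higher with decitabine against control siRNA and in both comparisons with CHD4 depleted, where its mean was 0.701 FPKM with siCHD4, 3.60 with siDNMT1 added and 4.09 with decitabine added. Some of these calls ended when 1 library was left out. With siDNMT1 against control siRNA this was so for PANX2 (control siRNA replicate 2, or siDNMT1 replicate 1 or 2, limma adjusted p = 0.0816 to 0.11) and for GJB2 without any library but control siRNA replicate 1 (limma adjusted p = 0.0655 to 0.122). The PANX2 call with siCHD4 plus decitabine ended without replicate 0 or 1 of that group or of siCHD4 (limma adjusted p = 0.0722 to 0.107), and the GJB5 call with decitabine against control siRNA without decitabine replicate 1 or control siRNA replicate 2 (limma adjusted p = 0.0510 and 0.0536) or after quantile normalization (limma adjusted p = 0.280). The list's median difference was 0.18 with siDNMT1 and 0.09 with decitabine against control siRNA.

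EEF1A1, the broadly expressed paralog of EEF1A2, was abundant throughout, with a mean of 6933 FPKM with siDNMT1 beside 7.23 for EEF1A2. Of 6 tested elongation factors, EEF2 was called higher with decitabine against control siRNA, and 4, EEF1A1 among them, were called lower with siCHD4 plus siDNMT1 than with siCHD4. EEF1A1 differed there by -0.50 (limma adjusted p = 0.0204). After quantile normalization 3 of these 4 lower calls ended: EEF1A1 stood at -0.11 (limma adjusted p = 0.718), EEF1B2 went from -0.81 to -0.10 (limma adjusted p = 0.619), and EEF1G turned from -0.47 to 0.21 (limma adjusted p = 0.188). The fourth gene was EEF1E1, at -0.70. EEF1B2 was also lower with siCHD4 plus decitabine, at -0.52, and turned to 0.25 under that scaling (limma adjusted p = 0.277), which also ended the EEF2 call (limma adjusted p = 0.173). The EEF2 call was lost without any 1 of the 6 libraries compared (limma adjusted p = 0.0622 to 0.130). The EEF1A1 call was lost without siCHD4 replicate 0 or 1, or siCHD4 plus siDNMT1 replicate 0 or 2 (limma adjusted p = 0.0666 to 0.0829), and the EEF1B2 call with siCHD4 plus decitabine without siCHD4 replicate 0 or siCHD4 plus decitabine replicate 0 or 1 (limma adjusted p = 0.0525 to 0.0621).

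HOMER1 and HOMER3, both paralogs of HOMER2, had means of 14.7 and 17.9 FPKM with control siRNA. Of 3 tested Homer and Shank genes HOMER3 was called higher with decitabine, at 26.4 ± 2.88 against 17.9 ± 0.711 FPKM (limma adjusted p = 0.0375), a call lost without any 1 of the compared libraries except decitabine replicate 1 (limma adjusted p = 0.0752 to 0.111). Among the tested spectrins SPTAN1 was called higher with decitabine against control siRNA and with siCHD4 plus siDNMT1 against siCHD4. With decitabine the SPTAN1 call ended without control siRNA replicate 0 or 1 (limma adjusted p = 0.0577 and 0.0553). AQP11 was the sole tested aquaporin besides AQP3 and was called in none of these comparisons, and AQP1 stayed below the filter with group means of at most 0.409 FPKM.

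FSTL1 has 3 tested relatives. SPARC, a secreted matrix protein, was called higher with siCHD4 plus siDNMT1 (1.18 against 0.0319 FPKM, limma adjusted p = 0.000185) and with decitabine against control siRNA (limma adjusted p = 0.0453), and the latter call was lost without decitabine replicate 0 or any 1 control siRNA library (limma adjusted p = 0.0970 to 0.147). FSTL5 is listed at 0 in all control siRNA and siCHD4 libraries and was called with siCHD4 plus siDNMT1 at a mean of 1.46 FPKM (limma adjusted p = 8.75e-08). It was also called with siCHD4 plus decitabine, at 0.327 FPKM (0.40, limma adjusted p = 0.0117), a call lost after quantile normalization (0.071, limma adjusted p = 0.683) and without siCHD4 plus decitabine replicate 1 (limma adjusted p = 0.0566). Quantile normalization ended both SPARC calls as well (limma adjusted p = 0.0624 with siCHD4 plus siDNMT1 and 0.374 with decitabine). FSTL3 was not called. Of the SIN3 complex, to which SAP25 belongs, all 17 other listed genes passed the filter on low values and were tested. SIN3B was called higher in each of these 4 comparisons, from 6.63 ± 0.612 FPKM with control siRNA to 11.0 ± 0.714 with decitabine (limma adjusted p = 0.000119). HDAC1 was called lower in 3 of them, the smallest level being 73.8 ± 2.34 with siCHD4 plus siDNMT1 against 105 ± 9.80 with siCHD4 (limma adjusted p = 0.000156). Leaving out 1 library ended the SIN3B call in 5 of 6 fits with siDNMT1 against control siRNA, in 4 of 6 with siCHD4 plus siDNMT1 and in 2 of 6 with siCHD4 plus decitabine (limma adjusted p = 0.0512 to 0.180), in each case without replicate 0 of either group compared among them. It ended the HDAC1 call with siCHD4 plus decitabine without replicate 0 or 1 of either group (limma adjusted p = 0.133 to 0.173), and with decitabine against control siRNA without control siRNA replicate 0 or decitabine replicate 2 (limma adjusted p = 0.0548 and 0.0633). After quantile normalization these 2 HDAC1 calls (limma adjusted p = 0.525 and 0.0908) and the SIN3B call with siDNMT1 against control siRNA (limma adjusted p = 0.138) ended as well. The median of the 17 was 0.13 with siDNMT1 and 0.02 with decitabine against control siRNA.

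The nearest tested protein-coding gene on each side of the 9, 18 in all, was looked up by position after the values were seen. With siDNMT1 against control siRNA, none of the 18 passed limma's adjusted threshold and 1 had an unadjusted p below 0.05, with differences from -0.29 to 0.45. With decitabine 3 were called higher, where 9.6% of tested genes were: LRCH4, ARFGAP1 and PPDPF. LRCH4, whose end lies 111 bases from SAP25 on the same strand, had 4.80 FPKM with control siRNA, 6.16 with siDNMT1 and 7.91 with decitabine (limma adjusted p = 0.242 and 0.0143), while SAP25 went from 0.176 to 46.7 and 40.0 FPKM. Without control siRNA plus decitabine replicate 0, PPDPF was no longer called (limma adjusted p = 0.153), and LRCH4 and ARFGAP1 were (0.0345 and 0.0129). With CHD4 depleted, 3 neighbours were called higher and 2 lower with siDNMT1, and 4 higher with decitabine, beside 16.6%, 19.4% and 7.66% of tested genes. Their differences ran from -0.50 to 0.88 and from -0.29 to 0.44, each neighbour below the gene it flanks.

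**Figure D5:**
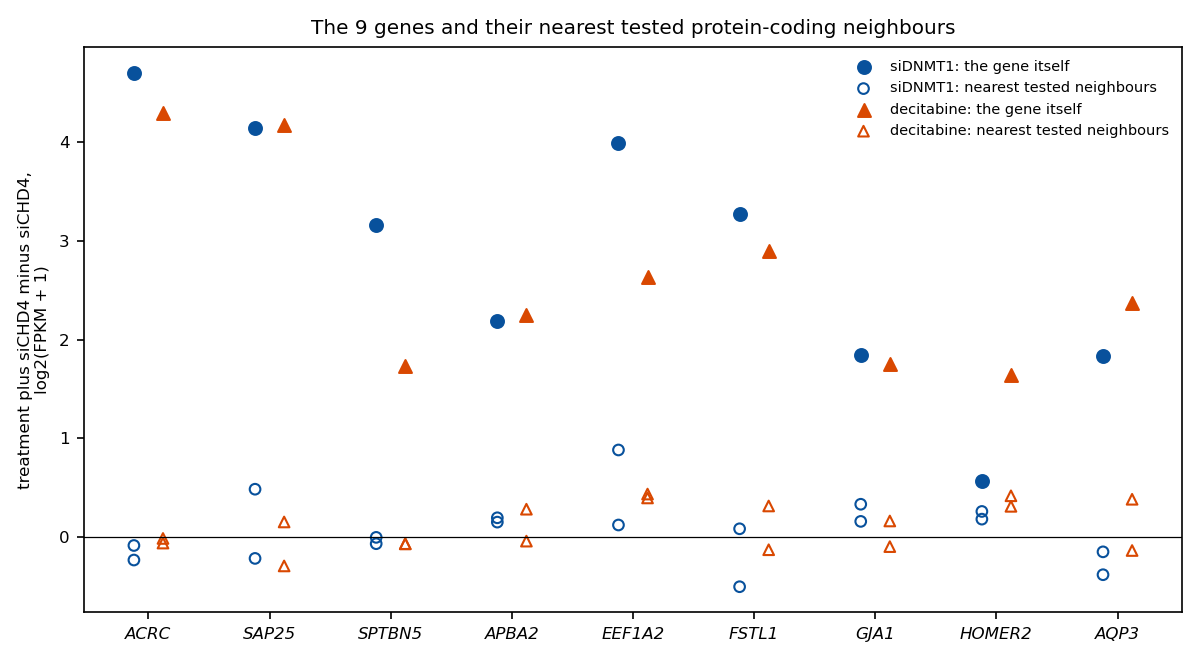
Difference from siCHD4 on the log2(FPKM + 1) scale (vertical axis) for each of the 9 genes (filled) and its nearest tested protein-coding neighbour on each side (open), with siDNMT1 added (blue circles) or decitabine added (orange triangles). Open symbols lie between -0.50 and 0.88 and filled ones between 0.57 and 4.70.

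The genes outside the set whose pattern over the 18 libraries was most like the mean standardised pattern of the 9 were HIST1H1A, THBS1, TDRD1, HIST1H1B and PNLDC1, with Pearson r of 0.993, 0.991, 0.990, 0.989 and 0.988. All 18 libraries enter each r, which is a description. HIST1H1A, a linker histone gene, had a mean of 0.327 FPKM with control siRNA and 0.205 with siCHD4, against 55.0 with siDNMT1 and 40.7 with decitabine. TDRD1 and PNLDC1, both known from germ cells, reached 7.27 and 5.04 FPKM with siDNMT1 and 5.12 and 4.60 with decitabine. THBS1, a secreted matrix glycoprotein, reached 79.7 FPKM with siDNMT1 and 35.5 with decitabine.

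Taking the extreme values of the 9 genes as bounds, 946 tested genes had a control siRNA mean of at most 0.727 FPKM, and 53 of these (5.60%) had a mean of at least 6.32 FPKM with siDNMT1 or decitabine. The 53 hold the 9 genes and 44 others. Ranked by the higher of the 2 treated means, the 9 stood between place 15 (SAP25) and place 53 (FSTL1). APCDD1, just outside, had 0.744 FPKM with control siRNA and 9.09 with the better treatment, and SYCP3 had 0.320 and 5.96. With siCHD4 alone, the median level was 0.366 FPKM for the 9 and 0.694 for the 44, of which 21 were at or above the highest of the 9 (AQP3, 1.54).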

How the data were processed

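Gene expression was measured by RNA sequencing in 18 SW48 libraries, in 6 groups of 3 taken from the library titles. The deposited values are FPKM that the authors computed. Per the submitters' processing notes the tools were TopHat2 2.0.9 and Cuffdiff 2.1.1 with hg19. The annotation, the scaling between libraries and the use of strand in counting are not stated in these sources, and read totals were not used, so no counting intervals are given. Of 23599 entries, 28 (0.119%) carry no gene name and were left out.

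The 12809 genes that reached 1 FPKM in 3 or more libraries were fitted as log2(FPKM + 1) with 1 mean per group over all libraries (12 residual degrees of freedom), using limma 3.58.1 in R 4.3.3 with a mean trend. All p-values are two-sided and adjusted by Benjamini-Hochberg over the tested genes, and calls use an adjusted p below 0.05. The step was tested on simulated data. Separated means that no library of one group overlaps the other.

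The 9 genes, the lists of relatives and markers, and the tests were chosen with earlier results of these data known. The genes named are the 9, up to 4 called genes of a list of relatives with the largest changes, the closest paralogs, CHD4 and DNMT1, and the 5 genes outside the set with the highest r. Neighbours, and the genes at the edges of the bounds, were named after their values were seen. Some genes of these lists are not reported here. ACRC was matched to GCNA. Coordinates are from GENCODE on GRCh37, and promoters from RefSeq on GRCh38.p14. Alternatives changed the pseudocount (0.1), the filter (none, or 5 FPKM), the scaling (median ratio, or quantile normalization), the weights of libraries, or the libraries fitted (the compared groups only, or all but 1), or added the replicate number as a block.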

Additional observations from a re-analysis of the deposited data

Results flagged for a closer look

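ACRC was the gene of the 9 whose libraries were fully separated by siCHD4 in opposite directions in the 2 treated backgrounds. With siDNMT1 the difference between siCHD4 and control siRNA was 0.22 ± 0.129 (SE) on the log2(FPKM + 1) scale, from 31.4 to 36.8 FPKM in the group means, and with decitabine it was -0.27 ± 0.129, from 33.3 to 27.5 FPKM. The first is under 2 SE. Of all tested genes 33.7% were separated upwards with siDNMT1 and 13.2% downwards with decitabine, and 0.64% were separated in opposite directions in the 2 backgrounds. Both differences use libraries that served to choose the gene, and the difference between them was not tested.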

How the results depend on the processing

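Of 135 values of the 9 genes recomputed for siCHD4 plus siDNMT1 against siCHD4, 134 kept their call and 1 lost it, and all 135 kept it for siCHD4 plus decitabine against siCHD4. For siCHD4 plus siDNMT1 against siCHD4 plus decitabine, 110 kept their side, 14 calls were lost, 4 were gained and 7 changed sign. Of those 7, SAP25 and GJA1 did so after quantile normalization (0.035 and -0.049). The others came from leaving out 1 library: SAP25 ran from -0.13 to 0.10 (signs changed without siCHD4 plus siDNMT1 replicate 2 or siCHD4 plus decitabine replicate 0), GJA1 from -0.064 to 0.21 (siCHD4 plus siDNMT1 replicate 1 or siCHD4 plus decitabine replicate 0), and APBA2 from -0.11 to 0.031 (siCHD4 plus decitabine replicate 2). These 3 genes were not called in this comparison under any alternative. The cause was not tested. In that comparison 2 of the 9 were called higher at a pseudocount of 0.1, and 2 lower with quantile normalization, library weights or the compared groups only.

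The replicate numbers were not taken to pair the libraries, and the labels state no pairing (same-number residual correlations from -0.31 to 0.126). With the replicate block ACRC lost its call between siCHD4 plus siDNMT1 and siCHD4 plus decitabine (limma adjusted p = 0.0531), and no other call of the 9 genes changed.

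Among all tested genes, 2129 were called higher and 2483 lower with siCHD4 plus siDNMT1 against siCHD4, 981 and 805 with siCHD4 plus decitabine against siCHD4, 1157 and 1288 between these treatments with siCHD4, 889 and 563 with siDNMT1 against control siRNA, and 1230 and 1105 with decitabine against control siRNA. In the same order, library weights gave 4577 and 4512, 3512 and 3446, 3119 and 3529, 2077 and 2280, and 2644 and 2977. The compared groups only gave 1301 and 1097, 604 and 233, 2199 and 2675, 1487 lower with siDNMT1, and 552 and 377. No filter gave 3492 and 1833 higher in the comparisons of siCHD4 plus siDNMT1 with siCHD4 and with siCHD4 plus decitabine, and a filter at 5 FPKM gave 1280, 559, 695, 512 and 804 higher, where fewer genes were tested. Leaving out 1 library gave 1456 to 2892 higher and 1612 to 3274 lower, 671 to 1528 and 383 to 1868, 692 to 1578 and 589 to 1853, 624 to 1199 and 266 to 909, and 762 to 1169 and 551 to 1172. Counts moved by over 1.5 times without siCHD4 replicate 0, 1 or 2, siCHD4 plus decitabine replicate 0, 1 or 2, siCHD4 plus siDNMT1 replicate 0 or 2, any control siRNA or control siRNA plus siDNMT1 library, or control siRNA plus decitabine replicate 0. All 9 genes were called in both comparisons with siCHD4 in each of these fits, and between the treatments 2 to 4 were called higher and 1 to 2 lower. The fits without control siRNA plus decitabine replicate 0 were added after the data were seen. After quantile normalization EEF1G (0.21) and EEF1B2 (0.25) changed sign. Of the calls of relatives, 59 of 340 recomputed values were lost with siCHD4 plus siDNMT1, 30 of 176 with siCHD4 plus decitabine, 29 of 119 with siDNMT1 and 56 of 207 with decitabine against control siRNA. Among the relatives named above, the compared groups only ended the calls of APBB2, EEF2, HDAC1, SPARC and SPTAN1 with decitabine against control siRNA, of SIN3B with siDNMT1 against control siRNA, of EEF1B2, FSTL5, HDAC1, PANX2 and SIN3B with siCHD4 plus decitabine, and of APLP2, EEF1A1, EEF1E1, EEF1G, PANX2 and SIN3B with siCHD4 plus siDNMT1 (limma adjusted p = 0.0505 to 0.269). The replicate block ended the calls of EEF2, HOMER3 and SPARC with decitabine against control siRNA and of HDAC1 with siCHD4 plus decitabine (limma adjusted p = 0.0578 to 0.0738).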
